A study of Rattus norvegicus with 6 samples.

Results

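Elastin, fibrillin, fibulin and microfibril-associated genes were examined in the tissue that grows into a subcutaneous implant. The 10 genes, taken by their symbols, were Eln, Fbn1, Fbln1, Fbln2, Fbln5, Mfap2, Mfap4, Mfap5, Emilin1 and Efemp2. Of these, 8 had a probe on the array, 1 each, among 22517 probes in all, and Fbln2 and Efemp2 matched no probe by symbol or Entrez identifier. The implants were pieces of cellulose coated with hydroxyapatite, a calcium phosphate mineral, which had been put beneath the skin of Sprague-Dawley rats at an age of 10 weeks. The day 1 group had been implanted for 24 hours (rats 1, 2 and 3) and the day 3 group for 72 hours (rats 6, 4 and 7), with n = 3 rats in each and a different rat for every implant. The coated implant, the strain and the age were common to both groups, and no uncoated or unimplanted samples were analysed here.

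Elastic fibres let skin, vessels and lung recoil after stretch. They consist of a core of cross-linked elastin laid down on microfibrils, which are built from fibrillins and carry small microfibril-associated glycoproteins. Fibulins and emilins join elastin to microfibrils and to cells, and lysyl oxidases cross-link the elastin. Fibroblasts and smooth muscle cells are the usual producers, and microfibrils also hold latent TGF-beta in the matrix.

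Of the 8 measured genes, 7 were higher and 1 was lower at day 3 than at day 1 (limma, Benjamini-Hochberg adjusted p under 0.05 over 11591 tested probes). Mfap5 rose 12.8-fold, Emilin1 6.27-fold, Fbn1 6.24-fold, Fbln5 4.22-fold, Mfap2 3.77-fold, Mfap4 2.43-fold and Eln 2.31-fold, while Fbln1 fell 1.68-fold. Over the whole array 31.9% of tested probes were called, 16.7% higher and 15.2% lower. The median log2 change of the 8 genes was 1.99, beside -0.05 for all tested probes. All 8 probes passed the filter on dim signal: 7 lay above the array median on all 6 arrays, and Mfap4 on 2 of 3 day 1 arrays and on all 3 day 3 arrays.

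Values below are the deposited intensity on its linear scale where each rat is listed. Means ± SD and changes are on a log2 scale, after background correction, and the array median on that scale was 6.47. Changes are day 3 minus day 1, and fold changes are taken from them, so the change of dim probes is understated. The p-values set the difference between days against the spread between 3 rats per day, which limma moderates with that of all tested probes. This number of arrays limits the precision. Brightness is not compared between genes, because each probe has its own response. Array slides and scan dates were not given in the sources used here, so batches could not be examined.

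Eln encodes tropoelastin, the soluble precursor of the elastic core. Its deposited intensity was 398, 318 and 762 in rats 1, 2 and 3 at day 1 and 1201, 1271 and 732 in rats 6, 4 and 7 at day 3. The days overlapped, since rat 7 lay below rat 3 of day 1. The mean rose from 8.79 ± 0.68 to 10.00 ± 0.44 (SD, n = 3), a change of 1.21 ± 0.37 (SE, limma adjusted p = 0.0433), and the 95% limits of the fold were 1.27 and 4.21. The call for Eln depended on single rats: the adjusted p was 0.129 without rat 1, 0.111 without rat 2, 0.134 without rat 6 and 0.126 without rat 4. It was also 0.0756 with no filter on dim probes, and the change stayed between 0.94 and 1.59 over all alternatives tried.

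Emilin1 encodes a glycoprotein found where elastin meets the microfibrils. Its deposited intensity was 519, 406 and 642 in rats 1, 2 and 3 at day 1 and 3177, 3203 and 3031 in rats 6, 4 and 7 at day 3. Every day 3 rat lay far above every day 1 rat, and the day 3 rats were nearly equal. The mean went from 8.96 ± 0.34 to 11.61 ± 0.04 (SD, n = 3), a change of 2.65 ± 0.18 (SE, limma adjusted p = 0.000345). Among the 8 genes this was the smallest adjusted p.

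**Figure D1:**
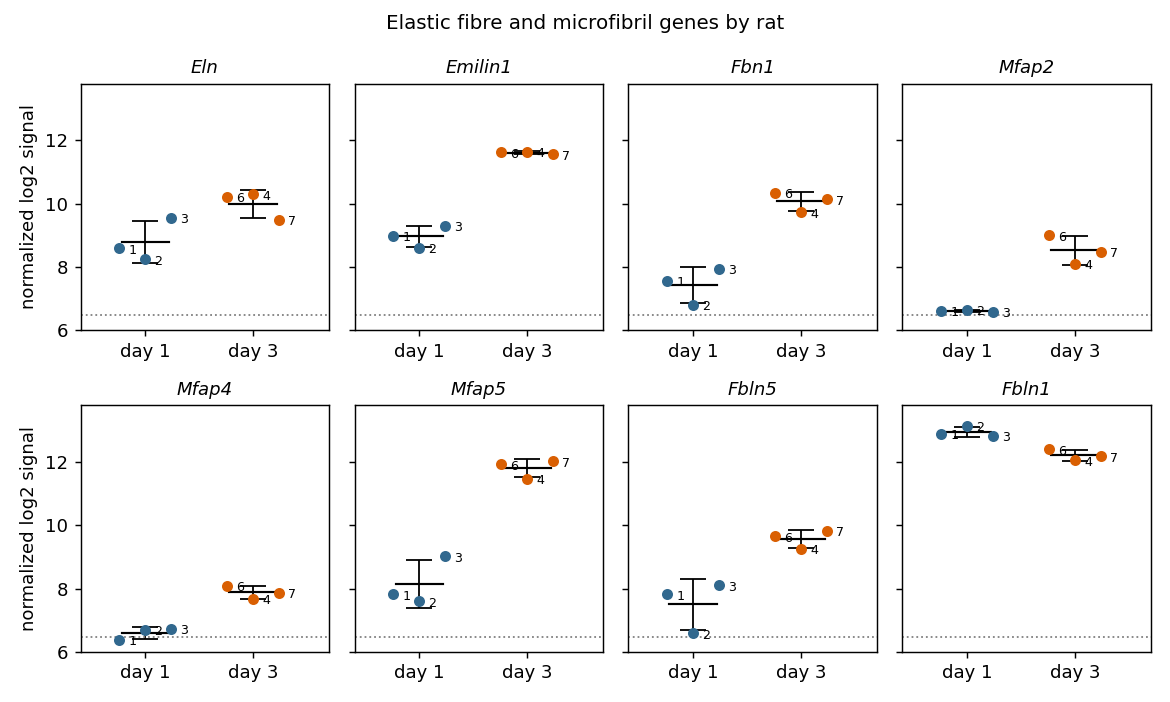
Normalized log2 signal of the 8 measured genes at day 1 and day 3, 1 point per rat with its number, and black bars for the mean and SD of 3 rats. The dotted line is the array median of 6.47. The days overlap for Eln and are apart for the other genes, with Fbln1 lower at day 3.

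The start regions of microfibril and fibulin genes that rose together are shown so that their base composition and short motifs can be set side by side. RefSeq windows of 300 bases on the rat build GRCr8 ran from 250 before to 50 after the annotated start of the gene. They were found for 4 of the 8 measured genes, namely Fbn1, Mfap2, Mfap5 and Fbln5. Each is written 5′ to 3′ along the gene, and capitals mark matches to 1 of 6 motifs on either strand.
Fbn1, chr3:133203341-133203640, minus strand: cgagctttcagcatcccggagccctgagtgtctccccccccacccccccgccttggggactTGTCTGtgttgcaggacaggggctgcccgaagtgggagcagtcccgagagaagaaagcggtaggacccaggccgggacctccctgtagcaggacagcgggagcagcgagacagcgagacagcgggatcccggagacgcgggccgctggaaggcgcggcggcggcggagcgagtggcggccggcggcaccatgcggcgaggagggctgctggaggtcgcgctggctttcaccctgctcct
Mfap2, chr5:158597478-158597777, plus strand: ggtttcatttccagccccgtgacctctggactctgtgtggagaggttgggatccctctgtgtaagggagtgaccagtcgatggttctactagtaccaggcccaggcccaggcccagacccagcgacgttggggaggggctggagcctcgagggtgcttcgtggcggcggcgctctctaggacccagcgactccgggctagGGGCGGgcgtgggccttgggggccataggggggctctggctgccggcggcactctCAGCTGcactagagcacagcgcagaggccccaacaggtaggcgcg
Mfap5, chr4:157399669-157399968, plus strand: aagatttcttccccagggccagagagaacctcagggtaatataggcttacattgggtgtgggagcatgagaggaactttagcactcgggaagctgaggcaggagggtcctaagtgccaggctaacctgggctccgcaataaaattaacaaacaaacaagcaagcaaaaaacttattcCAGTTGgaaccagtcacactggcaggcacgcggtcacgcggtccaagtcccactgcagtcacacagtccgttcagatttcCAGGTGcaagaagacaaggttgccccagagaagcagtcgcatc
Fbln5, chr6:126742657-126742956, minus strand: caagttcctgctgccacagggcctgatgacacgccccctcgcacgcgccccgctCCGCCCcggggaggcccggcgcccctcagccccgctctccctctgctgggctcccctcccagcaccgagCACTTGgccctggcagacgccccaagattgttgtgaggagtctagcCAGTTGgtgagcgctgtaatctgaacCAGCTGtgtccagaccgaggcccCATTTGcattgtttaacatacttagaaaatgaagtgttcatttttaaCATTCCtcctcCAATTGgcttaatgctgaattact
The motifs were TGANTCA for AP-1, GGGCGG for the GC box, CAGACA for Smad factors, GGAATG for TEAD factors, TATAAA for the TATA box and CANNTG for the E-box. No motif was found in all 4 windows, and no matches overlapped within them. An E-box was found in the windows of Mfap2, Mfap5 and Fbln5, and in 72.1% of 33469 rat windows of this length. A GC box was found for Mfap2 and Fbln5 (33.1% of windows), a Smad motif for Fbn1 (21.1%) and a TEAD motif for Fbln5 (14.2%). TGANTCA, held by 7.33% of windows, and TATAAA, held by 14.2%, matched none of the 4. The windows held 70.7% G or C for Fbn1, 67.0% for Mfap2, 58.3% for Fbln5 and 51.7% for Mfap5, beside a median of 51.7% over all windows. In the Fbn1 window the bases after the annotated start begin with atg, a possible start codon. That window may therefore not lie around the start of transcription, which limits its comparison with the others. A match describes these letters only, and binding was not measured.

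Fbn1 encodes a fibrillin, the main structural protein of microfibrils. Its deposited intensity was 203, 126 and 259 in rats 1, 2 and 3 at day 1 and 1311, 862 and 1142 in rats 6, 4 and 7 at day 3. The lowest day 3 rat was well above the highest day 1 rat. The mean went from 7.43 ± 0.58 to 10.07 ± 0.31 (SD, n = 3), a change of 2.64 ± 0.30 (SE, limma adjusted p = 0.00179).

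The 3 microfibril-associated glycoprotein genes all rose, and Mfap5 had the largest change among the 8 genes. The start region of Mfap5 held 2 E-box matches, and that of Mfap2 held 1 E-box and 1 GC box. An E-box was found in 72.1% of rat windows and a GC box in 33.1%, and a link to the rise was not tested. Mfap5 and Mfap2 encode small related proteins that bind fibrillin, and Mfap4 encodes a fibrinogen-domain protein that binds elastin and collagen. The deposited intensity of Mfap5 was 241, 208 and 533 in rats 1, 2 and 3 at day 1 and 3946, 2876 and 4192 in rats 6, 4 and 7 at day 3. The days were wide apart, with rat 3 above the other day 1 rats. On the log2 scale Mfap5 went from 8.14 ± 0.77 to 11.82 ± 0.29 (SD, n = 3), a change of 3.68 ± 0.37 (SE, limma adjusted p = 0.00126). Its rise ranked 20 among the 11591 tested probes.

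Mfap2 had deposited intensities of 113, 115 and 110.5 in rats 1, 2 and 3 at day 1 and of 525, 289 and 370.2 in rats 6, 4 and 7 at day 3. The day 1 rats were nearly equal and only slightly above the array median of 104, and rat 6 was the highest. The mean went from 6.61 ± 0.04 to 8.52 ± 0.45 (SD, n = 3), a change of 1.91 ± 0.22 (SE, limma adjusted p = 0.00179).

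For Mfap4 the deposited intensity was 98.6, 119 and 121 in rats 1, 2 and 3 at day 1 and 287, 219.7 and 249.6 in rats 6, 4 and 7 at day 3. The days did not overlap, and rat 1 lay below the array median. The change was 1.28 ± 0.16 (SE, limma adjusted p = 0.00212), from 6.60 ± 0.19 to 7.88 ± 0.21 (SD, n = 3). Mfap2 and Mfap4 thus started near the array median, where the fold understates the change: with no background step the changes were 1.76 and 1.16, and with a smaller background offset 2.39 and 1.68.

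The measured fibulin genes went in opposite directions. Fbln5 encodes a fibulin that ties elastin to cell-surface integrins and to microfibrils and is needed for elastic fibre assembly in mice. Its start region held 5 E-box matches, beside 1 GC box and 1 TEAD match, and their part in the change was not tested. Its deposited intensity was 240.3, 111 and 290.3 in rats 1, 2 and 3 at day 1 and 822, 624 and 919 in rats 6, 4 and 7 at day 3. All day 3 rats were above all day 1 rats, and rat 2 was far below the other day 1 rats. The mean went from 7.50 ± 0.81 to 9.58 ± 0.29 (SD, n = 3), a change of 2.08 ± 0.39 (SE, limma adjusted p = 0.00856).

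Fbln1 encodes a fibulin found in elastic fibres, basement membranes and blood, which also binds fibronectin and versican. Its deposited intensity was 7687, 9088 and 7378 in rats 1, 2 and 3 at day 1 and 5457, 4277 and 4691 in rats 6, 4 and 7 at day 3. All day 3 rats were below all day 1 rats, and the rats of each day lay close together. The mean went from 12.97 ± 0.16 to 12.22 ± 0.18 (SD, n = 3), a change of -0.75 ± 0.14 (SE, limma adjusted p = 0.00917), and the 95% limits of the fall were 1.33-fold and 2.12-fold. Fbln1 kept its direction and its call in all 15 alternatives, with changes between -0.90 and -0.66.

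**Figure D2:**
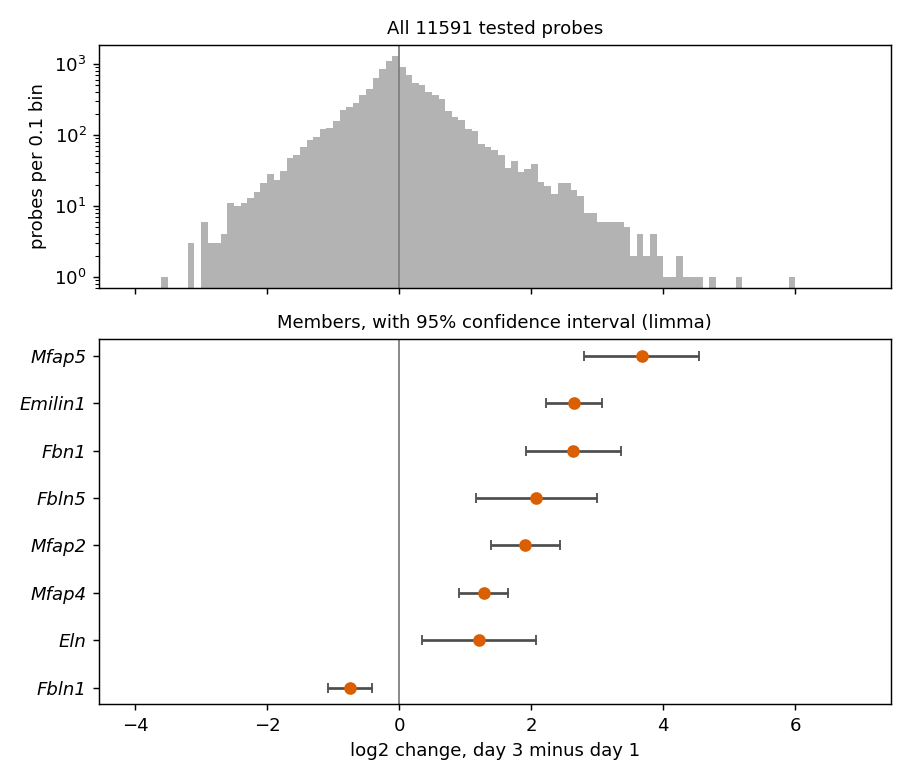
Top, the number of the 11591 tested probes at each log2 change (day 3 minus day 1, log count axis). Bottom, the change of each of the 8 genes with its 95% confidence interval from limma: 7 intervals lie above 0 and that of Fbln1 below it, and the interval of Eln comes closest to 0.

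In order of change the genes were Mfap5, Emilin1, Fbn1, Fbln5, Mfap2, Mfap4, Eln and Fbln1. Each neighbouring pair above Fbln1 had overlapping 95% intervals, and no order among those neighbours is read from them. The interval of Mfap5, 2.80 to 4.55, lay above those of Mfap2, 1.39 to 2.43, of Mfap4, 0.91 to 1.65, and of Eln, 0.34 to 2.07. Differences between the changes of separate genes were not tested. Signals of day 1 and day 3 were fully apart for 7 of the 8 genes, beside 49.4% of tested probes. Of these 7, Fbln1 was lower and 6 were higher at day 3, beside 25.6% of tested probes fully apart and lower, and 23.8% fully apart and higher.

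The day 1 rats differed from each other in a way that several of the genes shared. Day 1 rat 3 was the highest and rat 2 the lowest for Eln, Fbn1, Fbln5, Mfap5 and Emilin1. Over the 7 higher genes, the median deviation from the day 1 mean was 0.51 for rat 3, -0.55 for rat 2 and -0.00 for rat 1 on the log2 scale. Fbln1 ran the other way within day 1, with deviations of -0.12 for rat 3 and 0.18 for rat 2. Mfap2, which rose, did so too by less, with -0.03 for rat 3 and 0.04 for rat 2. Mfap4 had both above its day 1 mean, with 0.12 for rat 3 and 0.10 for rat 2. At day 3 the median deviations were 0.21 for rat 6, -0.33 for rat 4 and -0.01 for rat 7, and rat 4 was the lowest for Fbn1, Fbln5, Mfap2, Mfap4 and Mfap5. The SD was larger at day 1 than at day 3 for 5 of the 8 genes, beside 72.6% of all tested probes.

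Leaving out rat 3 raised the change of Mfap5 to 4.11 and that of Fbln5 to 2.38, and leaving out rat 2 lowered them to 3.40 and 1.62. No call among the 8 genes other than that of Eln was lost when any single rat was left out. Without both rat 3 and rat 6, the arrays with high skeletal muscle signal, all 8 genes were still called, 7 higher and 1 lower. The changes were then 4.05 for Mfap5, 2.76 for Fbn1 and 1.48 for Eln.

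**Figure D3:**
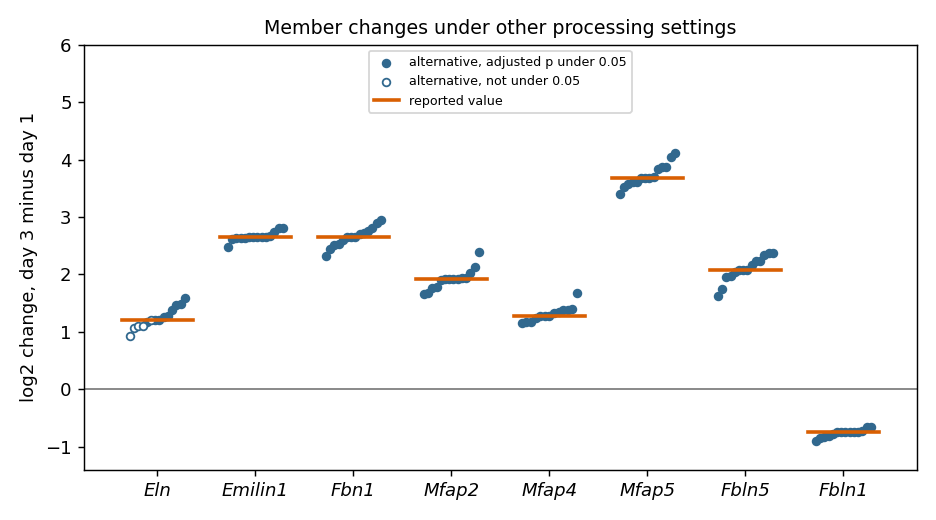
Log2 change of each gene (day 3 minus day 1) as reported, orange line, and under each alternative that moves the fit, points. Filled points have adjusted p under 0.05 and open points do not: the open points all belong to Eln, and no gene changes sign.

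Wound granulation tissue holds many cell types, and in RNA from whole implants fewer cells of a type cannot be told apart from less RNA per cell. Over all tested probes 16.7% were called higher. All 9 tested fibroblast markers of 10 listed rose, including Pdgfra, Thy1, Fap, Dpt, Col1a1 and Lum, and Pdgfrb had no probe. Their summed deposited intensity lay between 17499.5 and 55458 on the day 1 arrays and between 127369 and 142360 on the day 3 arrays, and rat 3 was the highest of its day here too. With a single rat left out, 7 to 9 of the fibroblast markers were called. All 5 tested endothelial markers of 8 listed also rose, with sums of 2806 to 5234 at day 1 and 9612 to 11224 at day 3. The endothelial calls numbered 3 without rat 1 and 2 without rat 4, rat 6 or rat 7. Of 9 smooth muscle and pericyte markers 4 were tested and 2 rose, Smtn and Myl9, with sums of 1854 to 5905 at day 1 and 7532 to 11190.3 at day 3. Des and Tagln were not called (limma adjusted p = 0.0945 and 0.0543) but held much of these sums. Des alone gave 3651 in rat 3 and 6254 in rat 6, the arrays with high skeletal muscle signal. In this list Acta2 and Myh11 had no probe, and Cnn1 and Notch3 lay above the array median on no array. Smooth muscle calls numbered 3 without rat 2 and 4 without rat 3. The part of each of these cell types in the rise of the elastic fibre genes was not tested.

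Neutrophil and pan-leukocyte markers went the other way: 5 of 6 tested and 4 of 5 tested fell, in that order. Over all tested probes 15.2% were called lower and 16.7% higher. The summed neutrophil signal was 26056 to 32905 at day 1 and 5469 to 7864 at day 3, and the pan-leukocyte sum went from 62483.5 to 74595 down to 33494 to 41488. Fbln1 fell alongside these lists, and their part in its fall was not tested. None of 8 tested skeletal muscle markers was called by limma (0 with unadjusted p under 0.05), but their sum reached 35150.2 in rat 3 and 27282.5 in rat 6, and stayed at 1312 to 2902 elsewhere. Without rat 3 and rat 6, 1 skeletal muscle marker was called lower. Of macrophage markers 4 of 6 tested rose, the C1q genes and Cd163, with sums of 2498 to 9236 at day 1 and 10673 to 24197.5 at day 3. The macrophage calls numbered at most 1 without rat 1, rat 2, rat 6 or rat 7. Of 6 tested lymphocyte markers 2 were called, Cd3d lower and Cd4 higher, a share near the 31.9% of all tested probes. Cd4 passed the filter only through day 3, and no lymphocyte marker was called higher without rat 1, rat 6 or rat 7. None of 4 tested adipocyte markers was called by limma (0 with unadjusted p under 0.05). No keratinocyte or chondrocyte marker with a probe passed the filter.

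**Figure D4:**
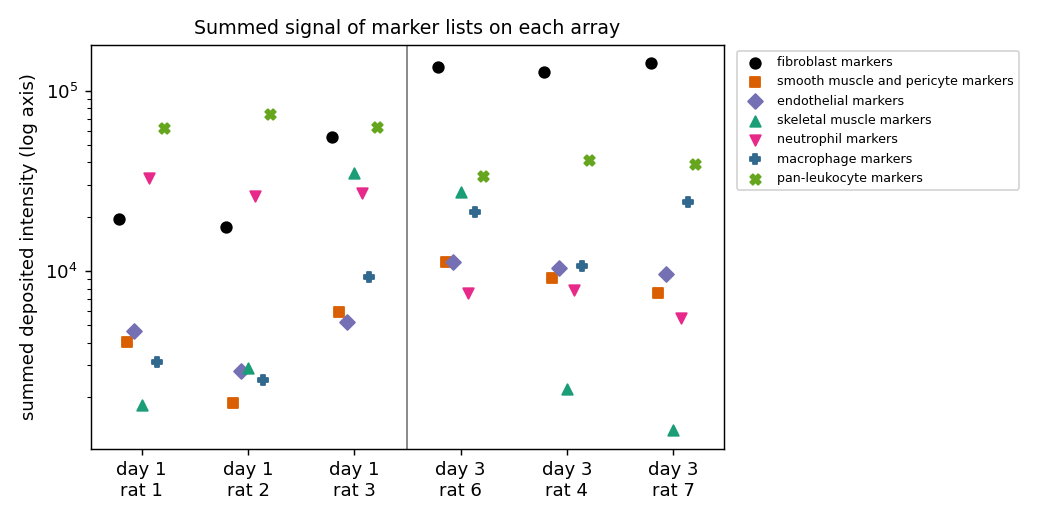
Summed deposited intensity of 7 marker lists on each array (log axis). Sums of fibroblast, endothelial, smooth muscle and macrophage markers are higher and those of neutrophil and pan-leukocyte markers lower on all day 3 arrays. Skeletal muscle markers are high in rat 3 and rat 6. Des and Tagln, which were not called, hold much of the smooth muscle sum.

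Among 67 further genes of elastic fibre assembly, turnover and binding, 52 had a probe and 43 were tested. Of these 20 rose, 5 fell and 18 did not pass the test, beside 16.7% higher and 15.2% lower over all tested probes. The median log2 change of the 43 was 0.58, beside -0.05 for all tested probes. The number that rose was 13 without rat 6 and between 14 and 23 without any other rat. Genes named below beyond the 3 with the largest changes in a list were chosen after their values were seen.

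Of the other fibrillin, fibulin, emilin and microfibril genes, 4 of 10 listed were tested, Fbn2 and Efemp1 rose, and Mfap3 and Mfap3l did not pass. The share called higher among all tested probes was 16.7%. Fbn2 encodes the fibrillin most known from development and tissue repair. Its deposited intensity was 97.1, 98.7 and 90.3 in rats 1, 2 and 3 at day 1 and 1049.9, 1012 and 895 in rats 6, 4 and 7 at day 3. No day 1 rat lay above the array median and every day 3 rat was far above it, so the signal was at least 10.9-fold higher at day 3 (limma adjusted p = 5.55e-05). Fbn2 passed the filter only through day 3, so that it differed follows in part from the filter. Efemp1, a fibulin family gene, rose 5.70-fold, from 7.76 ± 1.00 to 10.27 ± 0.46 (SD, n = 3, limma adjusted p = 0.00988).

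Of the enzymes that cross-link elastin and their maturation factors, 5 of 6 tested and 7 listed rose, beside 16.7% of all tested probes. They were Loxl1, Lox, Loxl2, Loxl3 and Bmp1, the proteinase that activates pro-lysyl oxidase. Loxl1, the lysyl oxidase tied to elastic fibre upkeep in mice, rose 9.70-fold, from 8.27 ± 0.93 to 11.54 ± 0.32 (SD, n = 3, limma adjusted p = 0.00295), and its second, dimmer probe had a change of 2.08 (adjusted p = 0.00398). Lox rose 7.39-fold and Loxl2 4.40-fold, with changes of 2.89 ± 0.28 and 2.14 ± 0.13 (SE). Loxl3 rose 2.44-fold and Bmp1 1.61-fold. These 5 calls held in each fit without 1 rat. Atp7a, which delivers the copper that lysyl oxidases need, had a change of -0.86 (adjusted p = 0.118), and it passed the test as lower without rat 3 (-1.30, adjusted p = 0.00154).

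Of the latent TGF-beta binding proteins, TGF-beta ligands and microfibril-binding ADAMTS proteins, 4 of 7 tested and 12 listed rose and 1 fell. Over all tested probes 16.7% were called higher and 15.2% lower. Adamtsl4, an ADAMTS-like protein that binds fibrillin, had 2 tested probes with nearly the same change, on either side of the threshold. The brighter, counted here, had a change of 0.36 (limma adjusted p = 0.106), and the other passed as higher (0.38, adjusted p = 0.0400). Ltbp2 and Ltbp4, fibrillin relatives that bind microfibrils, rose 2.81-fold and 2.79-fold (changes 1.49 ± 0.17 and 1.48 ± 0.29, SE; limma adjusted p = 0.00168 and 0.0105). The ligand genes went in different directions, with Tgfb1 lower (change -1.01 ± 0.16 SE, adjusted p = 0.00541) and Tgfb2 and Tgfb3 higher by 0.58 each. Tgfb3 had adjusted p = 0.0252, and 0.0802 without rat 1, 0.0586 without rat 2, 0.0821 without rat 6 and 0.0928 without rat 4. Tgfb2 had adjusted p = 0.0445. Of the fits that each left out a single rat, only that without rat 3 still called it, and the others gave adjusted p from 0.0736 (without rat 7) to 0.141 (without rat 4). It was also not called with an intensity trend (0.0538) or with no filter (0.0616). Ltbp1 had a change of 0.85 (adjusted p = 0.189), which was 1.31 (adjusted p = 0.0154) without rat 3 and 0.48 without rat 2.

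Among proteases that can degrade elastin, 2 of 9 tested and 11 listed fell and 1 rose. Calls in this list were about as frequent as the 31.9% over all tested probes. Elane, neutrophil elastase, fell 5.75-fold, from 10.85 ± 0.62 to 8.33 ± 0.53, and Mmp9, a gelatinase that neutrophils also hold, fell 5.32-fold, from 12.68 ± 0.79 to 10.27 ± 0.28 (SD, n = 3; limma adjusted p = 0.00382 and 0.00475). Elane also belongs to the neutrophil markers that fell. Mmp12, macrophage elastase, rose 1.78-fold (change 0.83 ± 0.18 SE, adjusted p = 0.0143), with adjusted p = 0.0559 without rat 6 and 0.0536 without rat 7. The cathepsins K, L and S did not pass the test, with changes of -0.09 for Ctsk, 0.02 for Ctsl and 0.17 for Ctss. Mmp7 had a change of 0.38 (adjusted p = 0.0879), and it passed as higher without rat 1 (0.51, adjusted p = 0.0416).

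Of the protease inhibitors, 2 of 5 tested and 7 listed rose, beside 16.7% called higher and 31.9% called in either direction over all tested probes. A2m, a broad protease trap, was at least 1.51-fold higher at day 3 (limma adjusted p = 0.00705) and passed the filter only through day 3. Timp1, an inhibitor of matrix metalloproteinases, rose 1.57-fold (change 0.65 ± 0.19 SE, adjusted p = 0.0401). With single rats left out, the call for Timp1 was kept only without rat 3, and its adjusted p otherwise lay between 0.101 and 0.124, and it was 0.0579 with no filter. Timp2 had a change of 0.49 (adjusted p = 0.139), and it passed as higher without rat 1 (adjusted p = 0.0494). Cst3 had a change of 0.77 (adjusted p = 0.129), and it passed as higher without rat 3 (1.05, adjusted p = 0.0297).

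Of the receptors that bind elastin, fibrillin or fibulins, 2 of 6 tested and 12 listed rose and 1 fell. Over all tested probes 16.7% were called higher and 15.2% lower. Itgb5, an integrin chain of vitronectin and fibulin receptors, rose 7.19-fold, from 8.13 ± 0.47 to 10.97 ± 0.19 (SD, n = 3, limma adjusted p = 0.000723). Itgb1, the common integrin beta chain, rose 1.65-fold (adjusted p = 0.0251), with 0.0859 without rat 1, 0.066 without rat 2, 0.0848 without rat 6 and 0.0722 without rat 4. Neu1, the sialidase of the elastin receptor complex and of lysosomes, fell 1.75-fold (adjusted p = 0.00493). Glb1, whose splice form is the elastin-binding subunit, had a change of 0.44 (adjusted p = 0.157), and it passed as higher without rat 2 (0.67, adjusted p = 0.0235).

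Of matrix partners of microfibrils and fibulins, 4 of 6 tested and 8 listed rose and 1 fell, beside 16.7% higher and 15.2% lower over all tested probes. Bgn, a small proteoglycan that binds tropoelastin, rose 3.40-fold (change 1.77 ± 0.16 SE, limma adjusted p = 0.000849), and Vtn, vitronectin, rose 3.83-fold (1.94 ± 0.30 SE, adjusted p = 0.00470). Sod3, an extracellular superoxide dismutase that binds Fbln5 protein, had a change of 2.09 ± 0.61 (SE, adjusted p = 0.0393), and Dcn, decorin, one of 1.79 ± 0.49 (SE, adjusted p = 0.0306). With single rats left out, both calls were kept only without rat 3, and the adjusted p otherwise lay between 0.0581 and 0.127 for Sod3 and between 0.0785 and 0.104 for Dcn, and with no filter it was 0.0717 and 0.0553. Dcn also belongs to the fibroblast markers that rose. Vcan, the large proteoglycan that Fbln1 protein binds, fell by 1.03 on the log2 scale (adjusted p = 0.0182), with adjusted p = 0.0652 without rat 6 and 0.056 without rat 7.

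**Figure D5:**
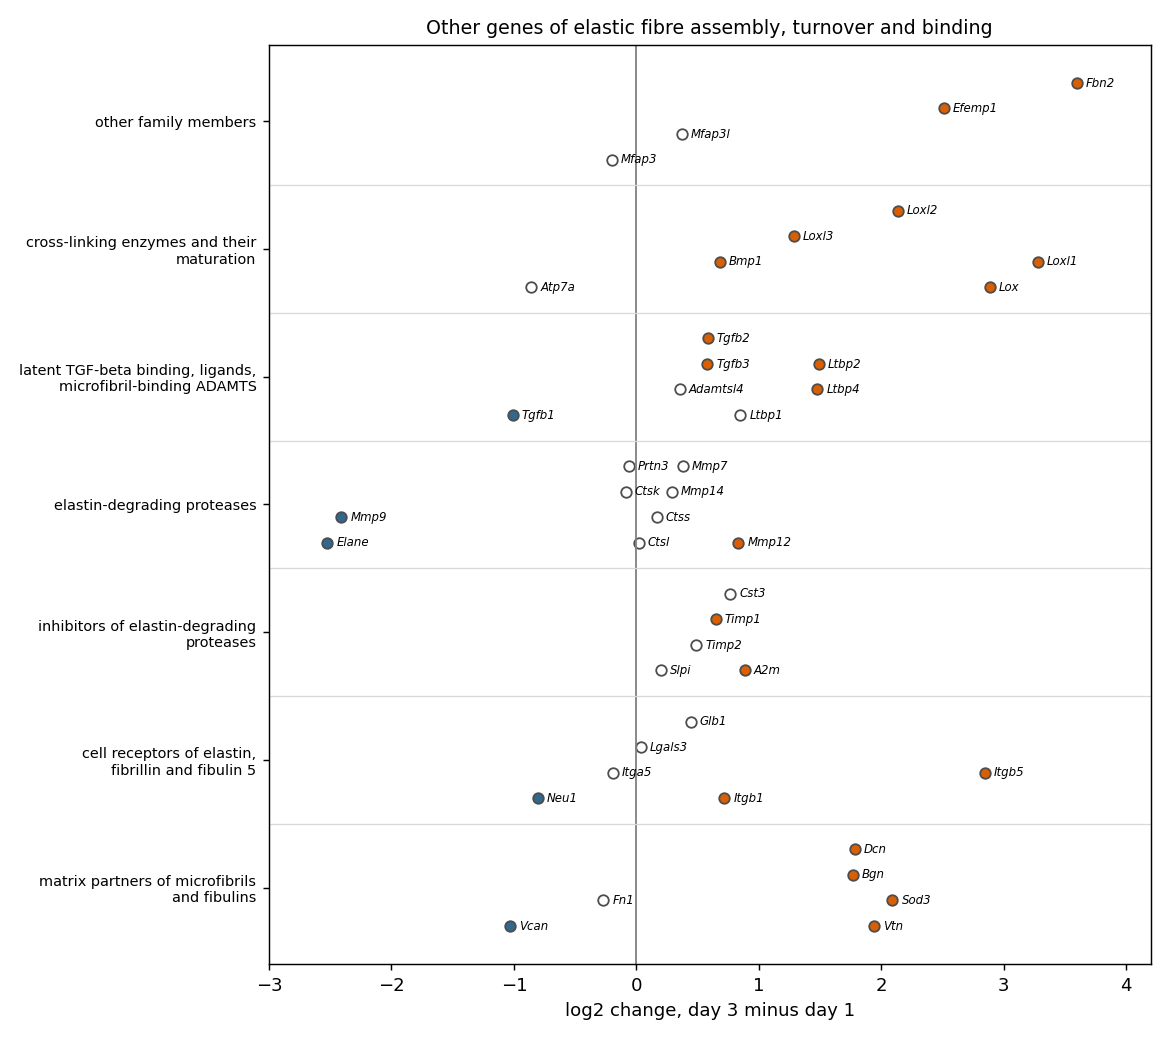
Log2 change (day 3 minus day 1) of the 43 tested genes in 7 lists. Filled points have limma adjusted p under 0.05, orange higher and blue lower at day 3, and open points do not. Lysyl oxidases lie to the right of 0 and Atp7a of the same list to the left, while Elane and Mmp9 lie farthest to the left.

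Genes with the most similar pattern over the 6 arrays were found by the root mean square difference between log2 values, each centred on its own mean, among 8343 other named genes. The difference between days stayed in these values, so a similar size of change by itself brings genes near each other. Shared regulation was not tested. Nearest to Mfap5 were Sfrp2 (0.12) and Gap43 (0.21), and nearest to Fbn1 were Qprt (0.07) and Mmp23 (0.10). Emilin1 had the mitotic kinesin genes Kif20a (0.11) and Kif23 (0.13) nearest to it, and Fbln5 had Vcam1 (0.11) and Chp2 (0.15). For Mfap2 they were Gpihbp1 (0.19) and Maged2 (0.20), and for Mfap4 Ddah2 (0.06) and Pofut2 (0.09). The nearest patterns to Eln were those of Cldn5 (0.13), an endothelial junction gene with a change of 1.06 (limma adjusted p = 0.0828), and of Ccn2 (0.18), a matricellular gene with a change of 1.42 (adjusted p = 0.0176). Cldn5 passed as higher without rat 3 (adjusted p = 0.00779), and Ccn2 had adjusted p = 0.0584, 0.0669 and 0.0604 without rat 1, rat 6 and rat 4. Fbln1 had Rab5a (0.06) and Hnrnph2 (0.08) nearest to it, with changes of -0.64 and -0.82 (adjusted p = 0.0103 and 0.00342).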

How the data were processed

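Total RNA from 6 implants (100 ng each, per the labels' protocols) was amplified, labelled with biotin and hybridised to Illumina bead arrays. The deposited intensity values are linear and already quantile normalized, as their sorted columns differ by at most 0.0399% between arrays; the submitters' processing notes list limma, without its version, and no source used here says whether background had been corrected. A second table, with signals before normalization, has 12 columns whose headers match no sample label and was not used, so the array median stood in for detection.

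With limma 3.58.1 (R 4.3.3), normexp with an offset of 50 was applied, followed by log2. Tested were the 11591 of 22517 probes that exceeded the median of their array at least 3 times in 6. The two-sided comparison of day 3 with day 1 used lmFit and eBayes, and p-values were adjusted by Benjamini-Hochberg over these probes, with 0.05 as the threshold. The fit was tested on simulated data with noise drawn separately for each probe. Shifts that many genes share within a rat were not simulated. No 2 arrays were alike: at most 0.107% of probes held equal values. A probe at or below the median on every array of a day got a lower bound of fold.

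Probes were named from the platform annotation, and 13747 of 13787 named probes matched an Entrez identifier in RefSeq; 8730 are unnamed here. For a gene with several kept probes in a list, the brightest stood for it. Every member was named, with the 3 called genes of largest change per list (or the one of smallest p), and for each called member the 2 genes of most similar pattern. Members and lists were chosen with earlier results of these data known. Alternatives tried were other background, normalization, filter, weight, variance and threshold settings, and fits without each rat or without the 2 arrays high in muscle signal. Marker counts without each rat were added after the data had been seen.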

Additional observations from a re-analysis of the deposited data

How the results depend on the processing

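The 7 higher members were 6 with adjusted p under 0.01, with no filter on dim probes, with a filter that asks for all 6 arrays (where Mfap4 was not tested) and without rats 1, 2, 6 or 4, and 7 in the other alternatives; the lower member, Fbln1, was called in all 15. No called member or list gene changed direction. Over the whole table, 3694 probes were called, 6123 with array weights, 1593 at adjusted p under 0.01 and between 2016 and 4902 without 1 rat (2338 without rat 1, 2016 without rat 6, 2427 without rat 4 and 2093 without rat 7). The 20 list genes that rose became 11 at adjusted p under 0.01, and 13 to 23 without 1 rat. Within lists, array weights also called Atp7a lower and Ltbp1, Slpi, Cst3, Glb1 and the brighter probe of Adamtsl4 higher, and Fn1 passed as lower with array weights and with cyclic loess. Mfap3l, not called in the reported fit, passed as higher with a smaller offset, array weights, an intensity trend, and without rat 3. No paired analysis was possible because the rats of the 2 days carry different numbers. Dim probes such as Mfap2 and Mfap4 at day 1 lie near the array median, so a fall from there could not be seen.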
